A study of Mus musculus with 2 samples.

Results

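Mertk, the receptor kinase that one of the knockout alleles removes, lies on mouse chromosome 2 (GRCm38, 128698956 to 128802894, plus strand), and 60 named genes between 118111876 and 148443563 of that chromosome are described here. They were listed by name as genes within about 20 Mb of Mertk, with Mertk itself left out, and the names were chosen by position with their normalised reads in both libraries known from earlier results. All 60 were found among the 38293 genes of the table. They are a selection: 678 genes of the table lie within 20 Mb of Mertk, and 226 of these were measured, meaning a mean of at least 20 normalised reads over both libraries. Of the 60 listed genes 58 were measured, and the values that follow were known when the list was drawn up, so they are given as a description. Of the listed genes 46 lie below Mertk in coordinates and 14 above it.

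Messenger RNA was sequenced from lung resident macrophages, gated as CD45+, CD11c high, Siglec-F+ and CD11b low, a gate that fits alveolar macrophages. The mice were labelled C57BL/6, 8 weeks old, and had been given 625 larvae of the roundworm Nippostrongylus brasiliensis 7 days earlier. One group was wild type (WT) and the other lacked both Axl and Mertk (Axl-/-Mertk-/-, here also the double knockout), and each group is 1 library, with no statement of how many mice it holds. The labels do not give the deleted parts of either gene, nor the strain of the stem cells in which the alleles were made. What follows from the missing receptors and what follows from any other difference between the 2 copies of this chromosome region cannot be told apart in this design.

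Genes close together on a chromosome are linked, which means that they tend to be inherited as one block, and they need share no function. The genes around Mertk serve very different tasks. Bub1, Bub1b, Ckap2l and Nusap1 act on the mitotic spindle, Pcna is the sliding clamp of DNA replication, Sirpa and Thbs1 bind CD47 on other cells, Mavs carries the alarm of cytosolic RNA sensors, and Gatm begins creatine synthesis. Alveolar macrophages clear apoptotic cells and surfactant from the airspace, and Mertk and Axl are receptors for apoptotic cells.

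The libraries held 15282882 (WT) and 15519680 (double knockout) reads assigned to genes, and 1 read is worth 1.21 and 1.18 normalised reads. There is 1 library for each genotype, so differences lack a replicate check and no p-value is given. Intervals beside ratios are exact 95% intervals (Clopper-Pearson) that cover counting error only. Mertk itself had 6484 normalised reads in WT and 2842 in the double knockout, a ratio of 0.438 (0.418 to 0.460). All 10 alveolar macrophage markers were detected in both libraries, with summed levels of 1267160 and 1097150 normalised reads, most of them from Chil3, and log2 ratios from -0.33 to -0.02. Endothelial markers were higher in the double knockout (6 of 7 measured by at least 1.5-fold, summed level 769 and 1128), as were red cell markers (5 of 5, 247 and 752) and 3 of 8 monocyte markers (Ly6c2, Cx3cr1 and Plac8). The summed level of the monocyte list, most of it from Fn1, was 191619 and 188724. The summed levels were 1545 and 1866 for neutrophil markers, 384 and 434 for platelets, 285 and 289 for lymphocytes and 3306 and 2800 for epithelium. Their part in the results was not tested, and in sorted bulk RNA fewer cells of a type and less RNA per cell cannot be told apart.

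Counting by a rule of size, 4 of the 58 measured genes were at least 1.5-fold higher in the double knockout and 10 were at least 1.5-fold lower. Among all 11795 measured genes of the table these shares were 1.74% higher and 1.33% lower, or 3.07% in either direction. For this rule 10 was added to both values before their log2 ratio was taken. At least 2-fold higher were 4 listed genes and at least 2-fold lower 8, against 0.348% and 0.271% of all measured genes. The counting interval of the ratio lay above 1 for 13 of the 58 and below 1 for 20, against 10.1% and 11.4% of all measured genes, which compares 2 libraries and not 2 genotypes. Because the list was drawn up with these values known, nothing is read from its shares. The median log2 ratio was -0.04 over the 58 genes and -0.0047 over all measured genes, so the typical neighbour was close to equal. The median size of the log2 ratio, sign left out, was 0.15 and 0.10.

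**Figure D1:**
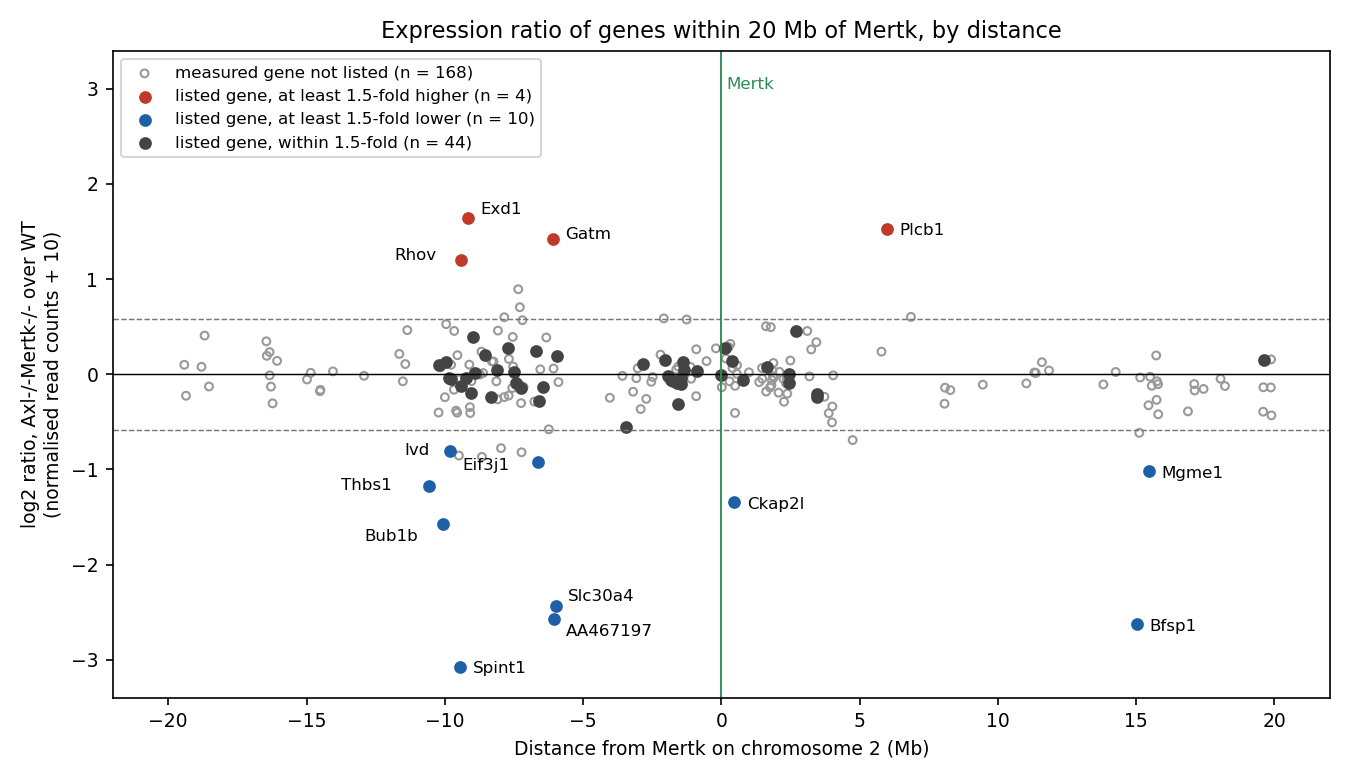
Log2 ratio (double knockout over WT, normalised read counts plus 10, vertical axis) against distance from Mertk in Mb for the 226 measured genes within 20 Mb; filled points are the 58 listed genes (red at least 1.5-fold higher, blue at least 1.5-fold lower, dark grey between), open points the 168 others, and dashed lines mark 1.5-fold. The widest ratios lie 6 to 11 Mb below Mertk and at 6 and 15 Mb above it, while nearly all genes within 5 Mb lie between the dashed lines.

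Most of the differing genes were not those closest to Mertk. From Dut to Cds2, a stretch of 7.06 Mb that contains Mertk, 23 of 24 measured listed genes lay within 1.5-fold, and the exception was Ckap2l. From Thbs1 to Bloc1s6, 4.64 Mb of chromosome that begins 10.6 Mb below Mertk, 10 of 30 listed genes were at least 1.5-fold apart, 3 higher and 7 lower. With the genes that are not listed added, 17 of 76 measured genes of this stretch were at least 1.5-fold apart (22.4%), against 2 of 81 from Dut to Cds2 (2.47%). The ends of both stretches were chosen after the values were seen. Above Cds2 only 4 genes are listed, and Plcb1, Bfsp1 and Mgme1 among them were at least 1.5-fold apart. With the genes that are not listed added, 5 of 34 measured genes from Plcb1 to Cd93 were at least 1.5-fold apart (14.7%).

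In fixed steps of 5 Mb all measured genes were counted again, including those of the stretches above. Between 10 and 5 Mb below Mertk 15 of 72 genes were at least 1.5-fold apart (20.8%). Within 5 Mb below Mertk the count was 1 of 35 (2.86%), and within 5 Mb above it 2 of 54 (3.70%). The count was 2 of 15 (13.3%) between 15 and 10 Mb below Mertk and 2 of 7 (28.6%) between 5 and 10 Mb above. Between 20 and 15 Mb below Mertk it was 0 of 12, and between 10 and 15 Mb above 0 of 7. Between 15 and 20 Mb above Mertk it was 3 of 24 (12.5%), and farther out on chromosome 2, beyond 20 Mb on either side, 23 of 717 genes (3.21%). On all other chromosomes together the share was 2.85%. Within 20 Mb of Axl, the other targeted gene, on chromosome 7, 8 of 326 measured genes were at least 1.5-fold apart (2.45%). Some far bins with under 20 genes reach high shares from 1 or 2 genes.

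**Figure D2:**
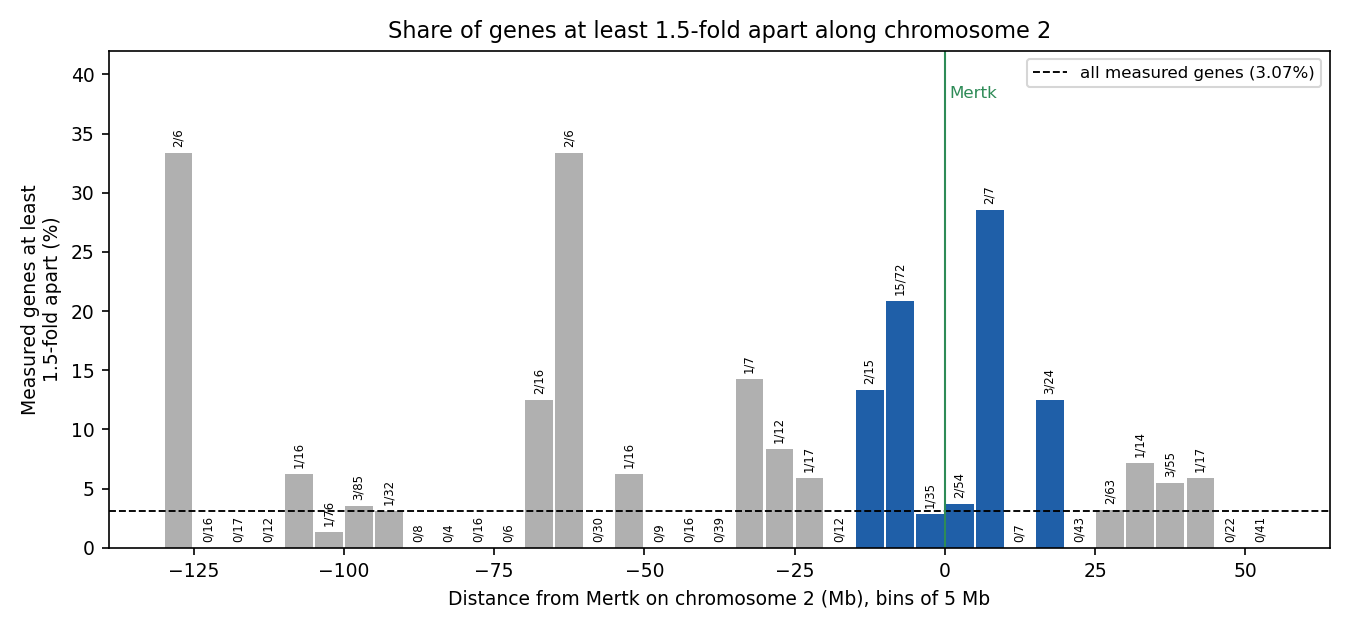
Share of measured genes at least 1.5-fold apart (vertical axis, percent) in bins of 5 Mb of distance from Mertk along chromosome 2, with the count of genes over each bar; blue bars lie within 20 Mb and the dashed line is the share among all measured genes, 3.07%. The bin from 10 to 5 Mb below Mertk holds 15 of 72 genes, and every other bar above 10% rests on 1 to 3 genes.

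Listed genes that differed in opposite directions lay within 25.7 kb of each other at 2 places, and one of them was a run of 3 genes 6 Mb below Mertk, Gatm, AA467197 and Slc30a4, within 108 kb. Gatm (122594467 to 122611303, minus strand) is the amidinotransferase that makes guanidinoacetate for creatine, and it had 3248 normalised reads in WT and 8732 in the double knockout, a ratio of 2.69 (2.57 to 2.81). AA467197 (122636986 to 122641191, plus strand), also called Nmes1, which encodes a small mitochondrial protein, had 2405 and 395, or 16.4% of WT (14.6% to 18.5%). Slc30a4 (122681233 to 122702663, minus strand), which encodes ZnT4, a carrier that moves zinc out of the cytosol into vesicles, had 1202 and 215, or 17.9% (15.2% to 21.0%). Gatm was thus the higher and the other two the lower in the double knockout, with gaps of 25.7 and 40.0 kb between the gene bodies. Spata5l1, a measured gene of the same run that is not listed, was at 121 and 126. The next listed genes on either side were close to equal, Sord, the sorbitol dehydrogenase, at 1040 and 950 and Bloc1s6, a subunit of a lysosome biogenesis complex, at 672 and 772.

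The other place lies 9.4 Mb below Mertk. Spint1 (119237362 to 119249527, plus strand) encodes HAI-1, a membrane inhibitor of the serine proteases matriptase and hepatocyte growth factor activator. It had 1178 normalised reads in WT and 131.0 in the double knockout, the lowest ratio of the list at 11.1% (9.06% to 13.5%). Rhov, whose gene lies 19.7 kb farther on, was low in both libraries, with 17 and 51 reads (20.5 and 60.2 normalised), and was higher in the double knockout with a ratio of 2.93 (1.67 to 5.42). Vps18, next in order and a core subunit of the tethering complexes of endosomes and lysosomes, was at 1448 and 1326, with a ratio of 0.915 (0.843 to 0.994).

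The start regions of Spint1, Gatm, AA467197 and Slc30a4 are printed because neighbours of opposite direction lie so close together there. That of Rhov, the neighbour of Spint1, is not printed. Those of Bub1b and Ckap2l are printed because they are the mitosis genes of the list that were at least 1.5-fold lower. Each is 300 bases, from 250 before to 50 after the start, from RefSeq (GRCm38.p6), read 5′ to 3′ on the gene's strand. Capitals mark matches on either strand to 4 motifs: GAGGAAG (PU.1), TGANTCA (AP-1), TTTGAA (the cell cycle homology region, CHR) and TGCGCNC (the metal response element core). Spint1 is at chr2:119237110-119237409 (+), Gatm at chr2:122611228-122611527 (-), AA467197 at chr2:122637637-122637936 (+), Slc30a4 at chr2:122702614-122702913 (-), Bub1b at chr2:118597961-118598260 (+) and Ckap2l at chr2:129297163-129297462 (-).
Spint1: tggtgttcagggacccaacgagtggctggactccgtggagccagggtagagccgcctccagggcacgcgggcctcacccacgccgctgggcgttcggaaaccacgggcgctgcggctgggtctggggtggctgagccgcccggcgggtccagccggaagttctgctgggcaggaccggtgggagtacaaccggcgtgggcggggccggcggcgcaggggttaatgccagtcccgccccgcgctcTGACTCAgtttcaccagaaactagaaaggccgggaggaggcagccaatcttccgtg
Gatm: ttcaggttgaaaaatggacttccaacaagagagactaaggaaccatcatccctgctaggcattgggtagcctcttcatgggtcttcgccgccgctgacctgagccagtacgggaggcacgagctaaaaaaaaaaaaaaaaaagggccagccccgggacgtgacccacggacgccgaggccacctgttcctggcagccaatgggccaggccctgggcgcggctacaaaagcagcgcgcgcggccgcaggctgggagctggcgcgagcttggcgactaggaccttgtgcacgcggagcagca
AA467197: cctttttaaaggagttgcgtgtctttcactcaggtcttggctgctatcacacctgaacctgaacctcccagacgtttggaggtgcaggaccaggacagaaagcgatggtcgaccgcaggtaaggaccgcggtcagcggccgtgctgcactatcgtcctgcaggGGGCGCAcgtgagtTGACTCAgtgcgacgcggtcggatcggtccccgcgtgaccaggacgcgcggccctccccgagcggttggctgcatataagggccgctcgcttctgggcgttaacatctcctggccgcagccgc
Slc30a4: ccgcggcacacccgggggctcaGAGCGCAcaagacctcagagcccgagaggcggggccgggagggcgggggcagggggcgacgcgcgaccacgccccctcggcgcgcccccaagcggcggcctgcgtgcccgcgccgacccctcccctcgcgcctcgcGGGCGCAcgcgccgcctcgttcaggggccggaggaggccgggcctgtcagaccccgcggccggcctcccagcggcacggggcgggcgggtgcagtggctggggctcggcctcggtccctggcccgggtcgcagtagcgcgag
Bub1b: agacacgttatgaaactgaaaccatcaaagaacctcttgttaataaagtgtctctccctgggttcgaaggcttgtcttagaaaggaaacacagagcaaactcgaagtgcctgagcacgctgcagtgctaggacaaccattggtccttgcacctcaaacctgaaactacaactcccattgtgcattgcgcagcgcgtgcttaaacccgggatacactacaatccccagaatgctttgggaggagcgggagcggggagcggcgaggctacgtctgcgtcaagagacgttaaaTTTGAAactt
Ckap2l: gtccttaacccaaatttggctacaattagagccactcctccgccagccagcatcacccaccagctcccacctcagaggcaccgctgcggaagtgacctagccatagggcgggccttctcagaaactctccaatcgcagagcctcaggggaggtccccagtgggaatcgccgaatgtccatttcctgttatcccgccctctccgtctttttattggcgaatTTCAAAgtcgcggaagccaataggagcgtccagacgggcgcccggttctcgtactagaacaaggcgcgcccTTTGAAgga

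RefSeq starts were found for 55 of the 60 genes and for 13 of the 14 that were at least 1.5-fold apart. The AP-1 letters stood in 7.81% of 32851 promoters of that length, in 5 of the 55 genes and in 4 of the 13, which are Spint1, AA467197, Eif3j1 and Exd1. The CHR letters stood in 17.9% of promoters, in 4 of the 55 genes and in 2 of the 13, which are Bub1b and Ckap2l. The other listed genes with these letters were Snap23 and Smox, which are not mitosis genes. The remaining mitosis genes of the list did not hold them. As counted, the CHR letters were no more frequent among the listed genes than among all promoters, so nothing is read from which genes held them. The metal response letters stood in 15.4% of promoters, in 21 of the 55 genes and in 4 of the 13, which are AA467197, Eif3j1, Plcb1 and Slc30a4. The PU.1 letters stood in 13.6% of promoters, in 9 of the 55 genes and in 0 of the 13. Gatm held none of the 4, and neither did Rhov, Ivd, Bfsp1 and Mgme1. These are matches of letters, and the counts do not rest on binding data. Base composition was alike, with a median of 62.7% G and C over the 13 genes and 62.8% over 48 starts of the other listed genes, against 52.7% over all promoters. The median number of CG pairs was 26 and 25.5, against 7 over all promoters. The shares of promoters count single starts, while a listed gene counts if any of its starts matches. For both reasons the counts of genes and the shares of promoters are not like for like.

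AA467197 is also the host of a microRNA: the hairpin of miR-147 lies inside the gene on the same strand (122640803 to 122640881). Its 5′ arm, the arm that the RefSeq table used here lists, is printed with the seed, bases 2 to 8, in capitals, to identify the hairpin within this host gene. The table's row for Mir147 had 0 reads in both libraries. Libraries made with oligo-dT do not capture mature microRNAs, so the level of the microRNA was not measured.
mmu-miR-147-5p: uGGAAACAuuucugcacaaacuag

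Among the genes of mitosis, Bub1b and Ckap2l stood far from the rest. Bub1b, which encodes the spindle checkpoint protein BubR1, had 1553 normalised reads in WT and 516 in the double knockout, or 33.2% (29.7% to 37.0%). Ckap2l, a spindle protein of dividing cells and the only listed gene within 5 Mb of Mertk that was at least 1.5-fold apart, had 981 and 380, or 38.7% (33.9% to 44.1%). The partner kinase gene Bub1, 0.87 Mb from Mertk, was at 233 and 238, with a ratio of 1.02 (0.836 to 1.25). Anapc1, the largest subunit of the anaphase-promoting complex and the listed gene closest to Mertk, was at 1598 and 1585, or 99.2% (91.9% to 107%). Knstrn, a kinetochore protein, was at 249 and 242, Nusap1, a spindle microtubule protein, at 362 and 315, and Tubgcp4, of the gamma-tubulin ring, at 342 and 348. The condensin subunit gene Ncaph was at 305 and 243, with a ratio of 0.796 (0.659 to 0.961).

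Mitosis genes on the other chromosomes were slightly lower without such a step. Of 22 measured genes 20 had a ratio below 1 and none was 1.5-fold apart, with a median log2 ratio of -0.22 and a range from -0.48 (Kif20a) to 0.40 (Ttk). The most abundant, Smc4 of condensin, was at 1789 and 1570. Bub1b at -1.57 and Ckap2l at -1.35 on the same scale lie outside that range, and Bub1 at 0.03 lies inside it. The counting interval lay below 1 for 8 of the 22 and above 1 for 0.

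Pcna, the replication clamp (132249162 to 132253314), had values of 1861 and 1615, a ratio of 0.868 (0.806 to 0.934). Replication genes elsewhere had a median log2 ratio of -0.21 over 17 genes, 15 of them below 1. Rfc4 was at 105 and 41.3 and Fen1 at 14.5 and 27.1, the ones at least 1.5-fold apart, and the most abundant was Rrm1 at 1148 and 964. Dut, which degrades dUTP, had 223 and 149 normalised reads, or 66.6% of WT (52.7% to 84.0%). Its log2 ratio with 10 added to both values was -0.56, just inside the 1.5-fold line, while without that addition the fold is 1.501, just past it. Trp53bp1, a DNA break repair protein, was at 319 and 299, and the remodelling ATPase gene Ino80 at 871 and 850. Exd1, known in mice for its part in making germline piRNAs, was close to the detection limit in WT with 10 reads and had 50 in the double knockout (12.1 and 59.0 normalised), a ratio of 4.89 (2.45 to 10.8).

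**Figure D3:**
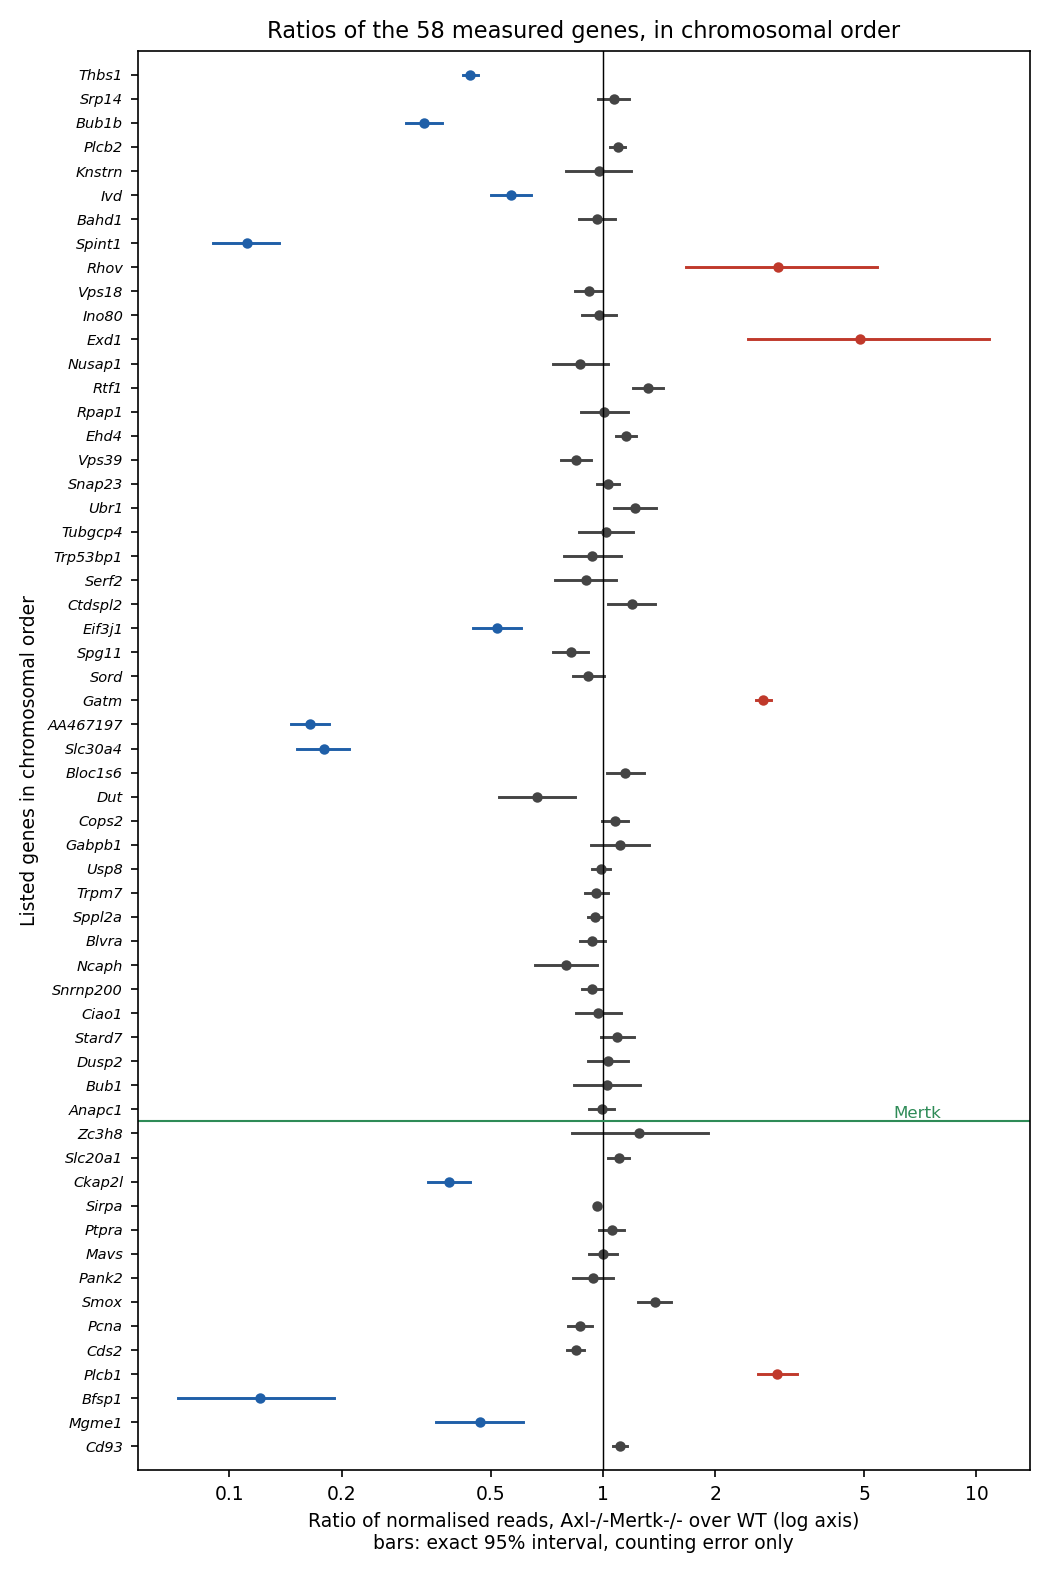
Ratio of normalised reads, double knockout over WT, on a log axis for the 58 measured genes in chromosomal order from top to bottom; bars are exact 95% intervals that cover counting error only, red and blue mark at least 1.5-fold higher and lower, and the green line is the place of Mertk. Most genes from Dut to Cds2 sit close to 1, apart from Ckap2l at 0.387.

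Pcna and Eif3j1 each share a long, nearly identical stretch of transcript with a copy on another chromosome, and reads assigned to those copies differed between the libraries. The processed pseudogene Pcna-ps2 (chromosome 19, 9283380 to 9284160) had 3 reads in WT and 289 in the double knockout. Eif3j2 on chromosome 18, whose transcript is 99.4% identical to that of Eif3j1 over 2379 bases, had 2 and 117. In the whole table these were the only 2 genes with at most 3 reads in WT and at least 100 in the double knockout, and 0 genes met the reverse rule, a pair of bounds chosen after the values were seen. A copy that matches Spg11, on chromosome 18, had 0 and 14 reads.

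With the copy's reads added, the values of the members moved. Eif3j1, which encodes subunit j of translation initiation factor eIF3, had 631 normalised reads in WT and 329 in the double knockout, a ratio of 0.522 (0.450 to 0.605). Together with Eif3j2 it was at 634 and 467, a ratio of 0.738 (0.646 to 0.842), which is inside the 1.5-fold line. Pcna and Pcna-ps2 together were at 1865 and 1956, a ratio of 1.05 (0.978 to 1.13), where Pcna alone was below 1. The copy took 29.5% of the pair's reads for Eif3j1 and 17.4% for Pcna in the double knockout, and 0.381% and 0.194% in WT. How multi-mapped reads were treated is not stated, so the split is uncertain in both libraries.

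The coding sequence of Pcna differs from Pcna-ps2 at 6 of 781 aligned bases, without gaps. The 90-base window with most differing bases, coding bases 88 to 177 counted from the A of the start codon, is printed from the reference transcripts (GENCODE vM21) with the 2 differing bases in capitals.
Pcna: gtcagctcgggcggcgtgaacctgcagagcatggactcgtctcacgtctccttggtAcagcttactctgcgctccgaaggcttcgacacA
Pcna-ps2: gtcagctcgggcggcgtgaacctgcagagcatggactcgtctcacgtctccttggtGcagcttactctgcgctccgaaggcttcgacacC

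The unlisted pair Mfap1a and Mfap1b, splicing factor genes 7.2 Mb below Mertk whose transcripts are 99.3% identical over 2328 bases, differed in opposite directions. Mfap1a was at 217 and 327 normalised reads and Mfap1b at 147 and 79.1. Their sum was 364 and 406, a ratio of 1.11 (0.952 to 1.30). A near-identical copy elsewhere was found for 7 of the 60 listed genes, and 25 overlap another annotated gene.

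**Figure D4:**
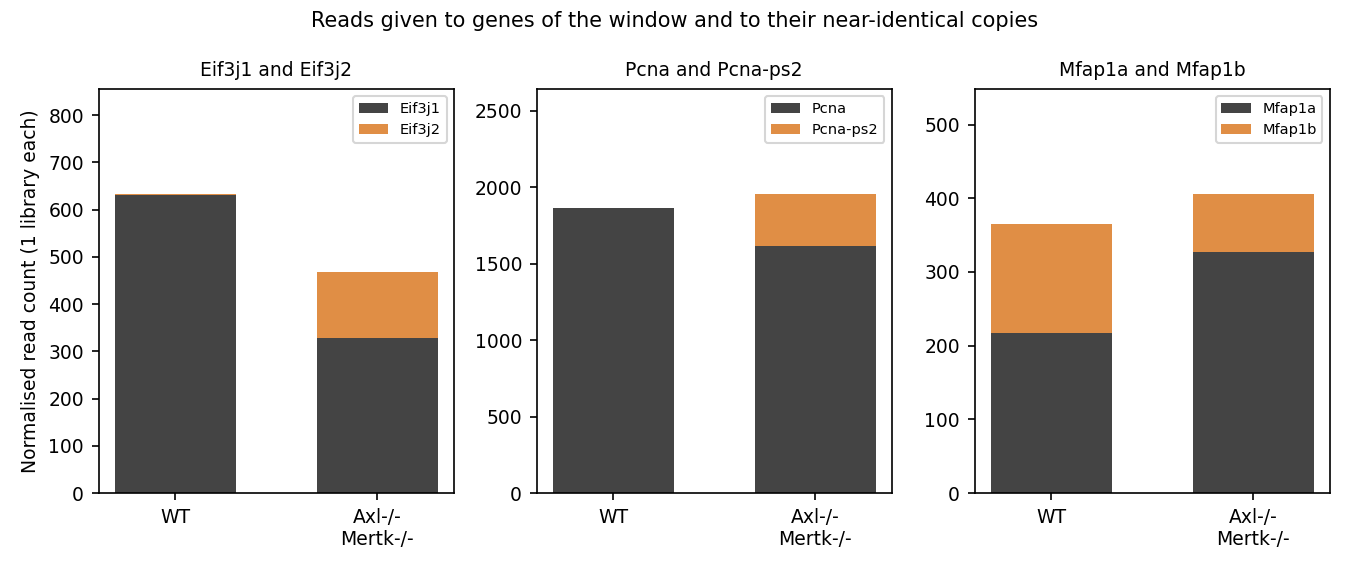
Stacked normalised read counts (vertical axis, 1 library per bar) of 3 genes of the window (dark) and of their near-identical copies (orange) in WT and Axl-/-Mertk-/-. Eif3j2 and Pcna-ps2 are invisible in WT and take 29.5% and 17.4% of the pair's reads in the double knockout, while the sum for Mfap1a and Mfap1b differs less than either gene.

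Surface and matrix genes ranged from near equal to the lowest ratio of the list. Sirpa, the receptor for the do-not-eat-me ligand CD47 and 0.79 Mb from Mertk, was the most abundant of the list, with 31064 normalised reads in WT and 29869 in the double knockout, or 96.2% (94.5% to 97.8%). Per kilobase of exon its level was 6325 and 6082. In the same unit Gatm was at 1082 and 2910, AA467197 at 1999 and 329, and Thbs1 at 1306 and 577. Thbs1 (118111876 to 118127133), the gene of thrombospondin-1, a secreted matrix protein binding CD47 and CD36 that bridges apoptotic cells to phagocytes, had 7931 and 3504 normalised reads, or 44.2% (42.3% to 46.1%). Of their partners on other parts of the genome, Cd47 was at 7474 and 7059, and the most abundant, Cd36, at 17002 and 14662. None of these 4 partners was 1.5-fold apart, with log2 ratios from -0.21 to -0.0045. Platelets also carry Thbs1. The platelet marker Pf4 was at 350 and 394 normalised reads and Itga2b at 30.2 and 36.6. Whether platelets add to the Thbs1 reads was not tested.

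Cd93, a lectin-like receptor of myeloid and endothelial cells at the far edge of the window, was at 4858 and 5387, a ratio of 1.11 (1.06 to 1.16), beside the higher endothelial markers given above. The receptor phosphatase gene Ptpra was at 1529 and 1615. For Spint1, the related inhibitor Spint2 was at 116 and 122, its target protease St14 (matriptase) at 85.7 and 93.3, and the most abundant partners were Hgf, hepatocyte growth factor, at 314 and 419, and its receptor Met at 275 and 274. None of the 4 measured partners was 1.5-fold apart.

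Metabolic and mitochondrial genes differed in both directions. Ivd, which degrades leucine in mitochondria, had 863 and 490 normalised reads, or 56.8% of WT (50.2% to 64.2%). Mgme1, an exonuclease of mitochondrial DNA 15.5 Mb above Mertk, had 211 and 99.2, or 46.9% (35.8% to 61.2%). It overlaps the abundant sorting nexin gene Snx5 on the opposite strand, at 7439 and 5936, and which strand the authors counted is not given. Smox, which oxidises spermine, was at 799 and 1098, with a ratio of 1.37 (1.24 to 1.52). Blvra, biliverdin reductase, was at 1553 and 1455 and Pank2, of coenzyme A synthesis, at 624 and 587.

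Other genes of creatine handling did not share the direction of Gatm. The methyltransferase gene Gamt, which acts after Gatm, was at 193 and 166, the most abundant of the list, the creatine transporter gene Slc6a8, at 1840 and 1656, and the creatine kinase gene Ckb at 538 and 488. The log2 ratios of these 3 measured genes were between -0.20 and -0.14, and none was 1.5-fold apart.

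Zinc handling outside the window likewise showed no step like that of Slc30a4. Of 8 measured genes none was 1.5-fold apart, with log2 ratios from -0.43 for the metallothionein gene Mt2 (2250 and 1667 normalised reads) to 0.23 for the zinc exporter gene Slc30a1 (449 and 530). The most abundant was Mt1 at 4812 and 4252. Of the other transport genes on the list, the channel kinase gene Trpm7 was at 1962 and 1884 and the phosphate importer gene Slc20a1, 0.40 Mb from Mertk, at 2072 and 2285.

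Phospholipases of the beta class turn receptor signals into inositol phosphate and diacylglycerol, and the genes of the window differed. Plcb1 (134786067 to 135475258) stood at 439 in WT and 1287 in the double knockout, in normalised reads, a ratio of 2.93 (2.60 to 3.31). Plcb2, the form typical of blood cells, was at 4485 and 4907, with a ratio of 1.09 (1.05 to 1.14). Per kilobase of exon Plcb1 was at 39.5 and 116 and Plcb2 at 680 and 744, so Plcb2 was the more abundant in both libraries. Of the 4 partners Plcb4, which lies next to Plcb1, was at 25.3 and 43.7 with a ratio of 1.72 (0.983 to 3.10), Plcb3 at 958 and 931, and the most abundant, Gnaq, at 2709 and 2822. Cds2, which makes the lipid precursor for phosphoinositides, was at 3444 and 2910, and Stard7, a phosphatidylcholine carrier, at 868 and 947.

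Bfsp1, which encodes filensin, a filament protein of the eye lens, lies about 15 Mb above Mertk (143826528 to 143863173). It had 170 reads in WT and 21 in the double knockout (205 and 24.8 normalised), or 12.1% (7.29% to 19.1%). Dstn, the actin-severing protein destrin, is close to it and not listed, and was at 5163 and 3367. Rrbp1, between Dstn and Mgme1, was at 9306 and 9092, and was named after its values were seen.

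**Figure D5:**
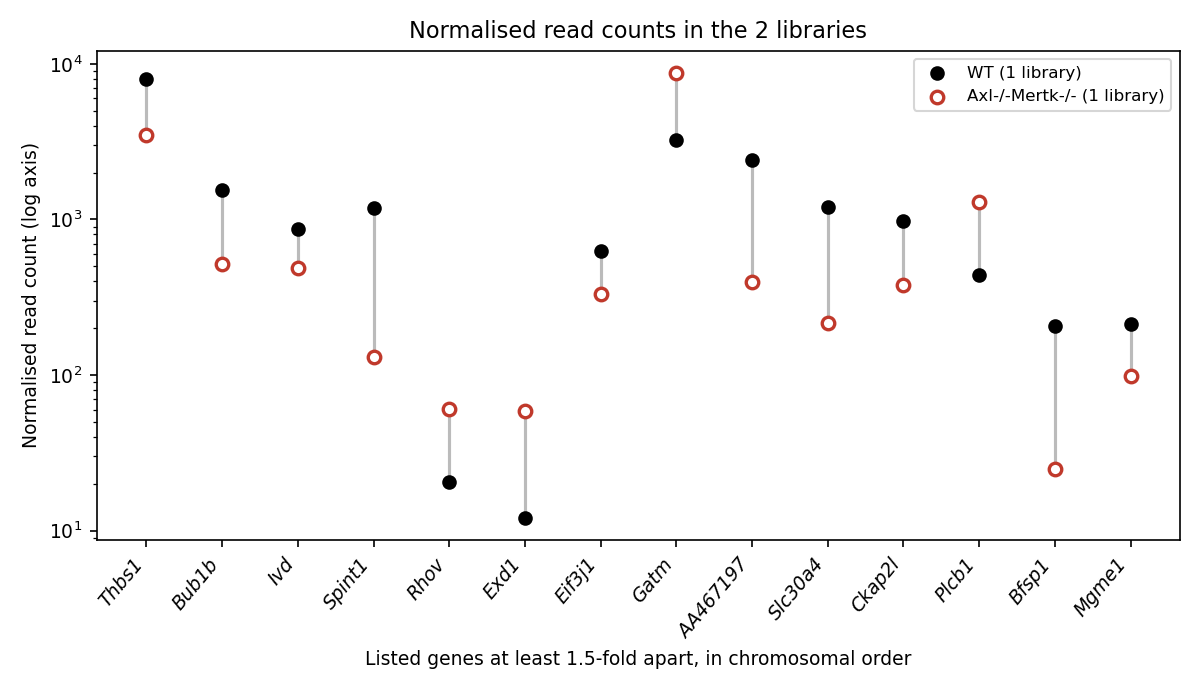
Normalised read counts (log axis) of the 14 listed genes at least 1.5-fold apart, in chromosomal order, in the WT library (filled) and the double knockout library (open), 1 library each. Rhov, Exd1, Gatm and Plcb1 are higher in the double knockout, the other 10 lower, and the WT values run from 12.1 (Exd1) to 7931 (Thbs1).

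Measured genes of membrane traffic, transcription and innate signalling lay within 1.5-fold of WT, apart from the low Rhov. Vps39, which with Vps18 belongs to the HOPS complex, was at 1195 and 1009, with a ratio of 0.845 (0.770 to 0.927). The other 6 HOPS and CORVET subunits had log2 ratios from -0.18 to 0.0066. Among them Vps16, which also lies near Mertk at 1.62 Mb, was at 1054 and 928 and the most abundant, Vps41, at 1688 and 1681. The endosomal recycling gene Ehd4 was at 2449 and 2825, the SNARE gene Snap23 at 2015 and 2075, and Spg11, of lysosome reformation, at 871 and 714. Sppl2a, the protease that clears the CD74 remnant, was at 4940 and 4706.

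Of the 6 genes of transcription and chromatin, Rtf1, an elongation factor, had the ratio farthest from 1, at 1.32 (1.21 to 1.44). The others were Bahd1, Rpap1, Gabpb1, Ctdspl2 and Zc3h8, with log2 ratios from -0.05 to 0.28. Zc3h8, the first listed gene above Mertk, was at 51.9 and 64.9 normalised reads. Mavs had 1291 normalised reads in each library, and the interval of its ratio ran from 0.918 to 1.09. Its pathway elsewhere was within 1.5-fold for all 6 genes, from Irf7 at 474 and 344 to Irf3 at 714 and 761, and the most abundant was the kinase gene Tbk1 at 1364 and 1379. The phosphatase gene Dusp2, which acts on MAP kinases, was at 591 and 610.

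Genes of RNA processing, translation and protein turnover were also near equal, apart from Eif3j1. The spliceosome helicase gene Snrnp200 was at 2545 and 2377, the signal recognition particle gene Srp14 at 997 and 1066 and the iron-sulphur assembly gene Ciao1 at 495 and 480. Usp8, a deubiquitinase of endosomes, was at 2981 and 2948, Cops2, of the COP9 signalosome, at 1349 and 1454, and the ubiquitin ligase gene Ubr1 at 529 and 645 with a ratio of 1.22 (1.07 to 1.39). Serf2, a small protein that affects protein aggregation, was at 281 and 253.

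Trim69 and Mal were below the minimum mean of 20. Trim69, a ubiquitin ligase gene, had 1 read in WT and 14 in the double knockout, a ratio of 13.7 with an interval from 2.08 to 579. Mal, a membrane raft protein of epithelium and T cells, had 1 read and 0, so both libraries were under the limit of 3 reads and no ratio is given.

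Among the 168 measured genes within 20 Mb that are not listed, 11 were at least 1.5-fold apart, 5 higher and 6 lower (6.55%), and none reached 2-fold. The list was drawn up with the values known, and it holds all measured genes of the window past 2-fold (4 higher and 8 lower). Both results for the unlisted genes thus depend on how the list was drawn up. Among these 11 genes 7 had a mean of at least 100, and 1 of the 7 has a provisional name. The others were Ppip5k1, a kinase of inositol pyrophosphates, at 354 and 666, Stard9, a mitotic kinesin, at 1095 and 635, Ttbk2, a kinase of cilia, at 89.3 and 140.5, the histidine decarboxylase gene Hdc at 91.7 and 143, and Dstn and Mfap1b, given above. Of these 6 genes Ppip5k1, Stard9, Ttbk2 and Mfap1b lie 7 to 8 Mb below Mertk, in the same stretch as Spint1 and Gatm.

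The median mean level of the 14 differing genes was 679 normalised reads, against 972 for the other 44 measured listed genes and 448 for all measured genes. On the plus strand were 8 of the 14 and 33 of the 60. Between neighbouring differing genes the number of listed genes in between ran from 0 to 17, the longest such run being the one from Slc30a4 to Ckap2l.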

How the data were processed

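Lung resident macrophages of infected mice were sorted, and polyadenylated RNA was made into strand-specific libraries, per the labels' protocols. The deposited table holds a signal, namely gene counts after the authors' scaling by 1 size factor for each library. TopHat2, DESeq2 and the build GRCm38 are named in the submitters' processing notes. No source used here names the counting program, its strand setting or its handling of multi-mapped reads.

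Dividing by the smallest value of each library gave whole reads for 100% of values (tolerance 1e-06). Size factors were 0.829 (WT) and 0.847 (Axl-/-Mertk-/-). With 1 library per group edgeR could not be fitted on these reads. A rule of size replaced it: log2 ratios with a pseudocount of 10, a minimum mean of 20, and lines at 1.5-fold and 2-fold. Only the 1.5-fold line and the intervals were tried on simulated reads. Those reads held counting error only, so they cannot show how the rule fares with differences between mice or libraries. Intervals treat reads as independent, which duplicates made by PCR are not, so they cover counting error only.

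Samples were grouped by the genotype label, and table columns were matched by the sample number in the labels, with 0 columns of other samples. Positions came from GENCODE vM21 (GRCm38) by gene identifier, which held all 60 listed genes and 99.2% of measured ones. Near copies were transcripts at least 90% identical over at least 200 bases and 25% of the shorter one (BLAST+ 2.17.0, megablast). Biopython 1.88, pandas 2.3.3, SciPy 1.17.1 and matplotlib 3.10.9 were used under Python 3.11.15.

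The listed genes, role groups and partner lists were chosen with earlier results of these data known. Named were listed genes at least 1.5-fold apart, the 5 nearest to Mertk on either side, members of their role groups, unlisted genes of the window with a mean of at least 100 and at least 1.5-fold apart, copies and overlapping genes, and of each partner list the most abundant gene and those at least 1.5-fold apart. Other partner genes, and Spata5l1, were named after their values were seen. Alternatives were the pseudocount, the minimum mean, the scaling, the window, leaving out genes that share sequence or position, and, added after the data were seen, adding the reads of copies.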

Additional observations from a re-analysis of the deposited data

How the results depend on the processing

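Under pseudocounts of 1 and 50, median-of-ratios factors of these 2 libraries and scaling by total reads, all 14 listed genes at least 1.5-fold apart stayed so in the same direction. A reversal was looked for among these 14 only. Genes close to equal could change sign, as Anapc1 did, from -0.011 to 0.0042 with median-of-ratios factors. The largest shift of a log2 ratio was 0.86, that of Bfsp1 with a pseudocount of 50 (-2.63 to -1.77). The count at least 1.5-fold higher fell from 4 to 2 with a minimum mean of 100. The count at least 2-fold higher was 2 with that minimum and also 2 with a pseudocount of 50, both of which bear on the low genes Rhov and Exd1. Within 10 Mb of Mertk 6 genes were at least 1.5-fold lower and 4 at least 2-fold lower. Without genes that have a near copy or an overlapping gene, which leaves 31 listed genes, these counts were 3 and 2. This setting drops a gene for any annotated overlap, whatever the reads of the overlapping gene. AA467197, Ckap2l and Bfsp1 were dropped for overlapping genes with 0 reads in both libraries, and Slc30a4 for a gene with 4 reads in each. The median log2 ratio ranged from -0.051 (minimum mean of 100) to 6.57e-05 (without shared genes). The share of genes within 20 Mb that were at least 1.5-fold apart was 6.19% without a minimum mean, where 678 genes enter, and 8.25% to 12.8% under the other settings. With reads of copies added, the log2 ratio was -0.43 for Eif3j1, 0.069 for Pcna and -0.25 for Spg11, and 9 genes were at least 1.5-fold lower. No paired analysis was possible because each genotype has 1 library. For the same reason no library could be left out. Depth limits Rhov, Exd1 and Trim69, which had 17, 10 and 1 reads in WT.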
